A study of Mus musculus with 36 samples.

Results

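Of 36 single neurons of the mouse midbrain, 5 carried high values of both a glutamate transporter transcript and a GABA-synthesis transcript. These dual cells were chosen by their values of the genes themselves. A dual cell had Slc17a6 at 100 or more together with Gad1 or Gad2 at 100 or more. The other cells fell into 11 with Slc17a6 at 100 or more and both Gad genes below 100 (Slc17a6-only), 19 with Gad1 or Gad2 at 100 or more and Slc17a6 below 100 (Gad-only), and 1 with none of the 3 genes at 100. Each library was 1 labelled neuron of a MADM clone, that is, of the descendants of a progenitor marked by recombination between homologous chromosomes, and the series labels the clones E12, for embryonic day 12. The 36 cells came in 18 clones of 2 sequenced cells each, all from mice carrying M11GTTG, the MADM cassettes. Fz10-CreER was the recombinase in 22 cells (genotype M11GTTG-Fz10-CreER) and Sox2-CreER in 14 (M11GTTG-Sox2-CreER), both named after genes active in neural progenitors. Tissue labels gave 22 cells from sSC, 12 from dSC and 2 from PAG, taken to mean superficial superior colliculus, deep superior colliculus and periaqueductal grey. The mice were of mixed background and both sexes, and the labels name no animal, no sex and no age for a given cell. Clones may therefore share an animal, and p-values describe the spread between these clones.

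Slc17a6 encodes the vesicular transporter that loads glutamate into synaptic vesicles of most excitatory midbrain neurons. Gad1 and Gad2 encode the enzymes that make GABA from glutamate, and Slc32a1 encodes the transporter that loads GABA into vesicles. A neuron that releases GABA by the usual route needs an enzyme and that transporter, so Gad transcripts alone do not make a cell GABA-releasing. In the developing midbrain, Gata2, Gata3, Tal1, Sox14, Lhx1 and Lhx5 mark GABAergic lineages, while Pou4f1, Lhx2, Lhx9, Ebf genes and Tcf7l2 are found in excitatory ones.

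The 5 dual cells came from 5 different clones and are named here by clone letter. Values are the normalised signal of the deposited table, in which every cell sums to 2000000. Clone F (dSC, Sox2-CreER) had Slc17a6 at 345, Gad1 at 40.1 and Gad2 at 106. Clone H (sSC, Sox2-CreER) had Slc17a6 at 183, Gad1 at 89.5 and Gad2 at 113. Clone I (dSC, Fz10-CreER) had Slc17a6 at 369.8, Gad1 at 27.2 and Gad2 at 169.5. These 3 cells passed the Gad side of the rule through Gad2 alone.

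Clone M (sSC cell 1, Sox2-CreER) was like them, with Slc17a6 at 196, Gad1 at 96.1 and Gad2 at 109.7. Clone Q (sSC, Sox2-CreER) differed from the other 4, with Slc17a6 at 164, Gad1 at 703 and Gad2 at 461. All 5 cells had Gad2 at 100 or more, and clone Q was the only dual cell with Gad1 at 100 or more. Slc17a6 exceeded both Gad genes in 4 of the 5, clone Q being the exception. Gad2 exceeded Gad1 in the same 4 dual cells, against 6 of 11 Slc17a6-only and 6 of 19 Gad-only cells.

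Set against the other classes, the 4 cells other than clone Q had the Slc17a6 of an excitatory cell and a Gad2 in the lower part of the Gad-only range. Slc17a6 ran from 105 to 849.9, with a median of 278, in Slc17a6-only cells and from 0 to 95.4 in Gad-only cells. Gad2 in Gad-only cells had a median of 345 (1.11 to 1035), and in Slc17a6-only cells it reached 80.9. Ranked from the highest of all 36 cells, Gad2 stood at 18 in clone I, 20 in clone H, 21 in clone M and 23 in clone F, and at 7 in clone Q. The label "high in both" thus held for clone Q with both Gad genes, for clone I with Gad2 at 169.5, and for clones F, H and M with Gad2 just past the threshold. No test is given for these 3 genes, because they chose the cells.

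**Figure D1:**
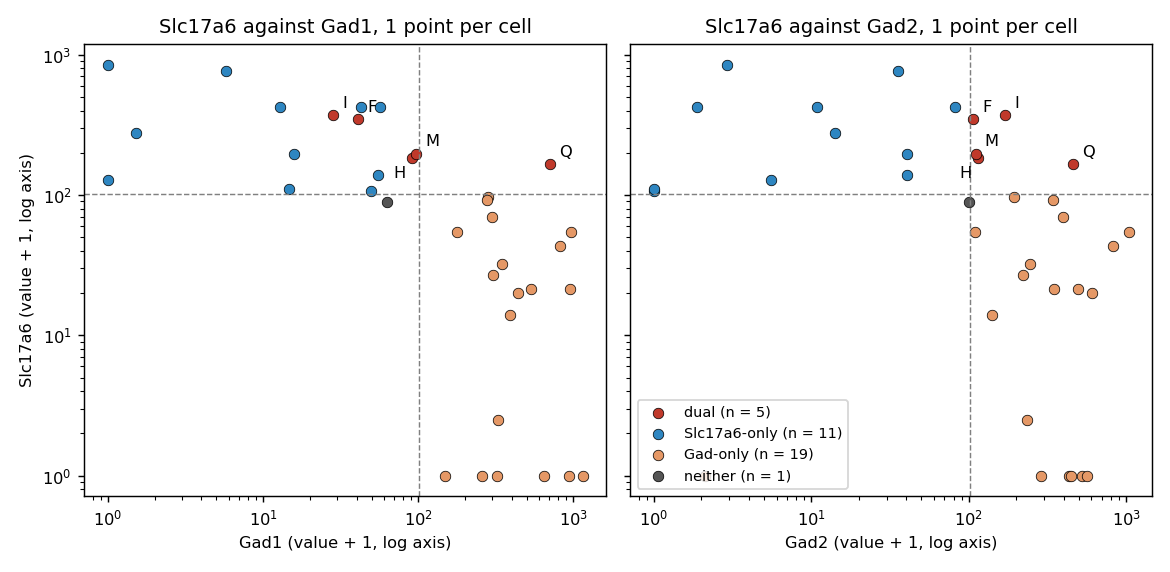
Slc17a6 (vertical axis) against Gad1 (left) and Gad2 (right) in all 36 cells, as value + 1 on log axes, with dashed lines at the threshold of 100 and the dual cells labelled by clone. Clone Q lies apart at Gad1 703 and Gad2 461, while the other 4 dual cells lie left of the Gad1 line, with clones F, H and M just past the Gad2 line and clone I at Gad2 169.5.

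Several cells lay close to the threshold on either side. Just inside were Gad2 of clone F (106), clone M (109.7) and clone H (113). Just outside, clone K sSC cell 2 was Gad-only with Slc17a6 at 95.4, and clone R sSC cell 1 was Gad-only with Slc17a6 at 91.8. The cell with none of the 3 genes at 100, clone C dSC, had Slc17a6 at 88.4, Gad1 at 62.3 and Gad2 at 98.7. Clone U sSC, a Slc17a6-only cell, had Gad2 at 80.9. The class therefore changes with the threshold: 14 cells were dual at 50, and none was at 200.

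No clone held 2 dual cells. The other sequenced cell was Gad-only in 3 clones. In clone F it was an sSC cell with Slc17a6 at 20.3, Gad1 at 944 and Gad2 at 491. In clone I it was an sSC cell with Slc17a6 at 0, Gad1 at 1145 and Gad2 at 443, and in clone M it was sSC cell 2 with 20.3, 535 and 345 for the same genes. Each of these partners was at the GABA pole.

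In the remaining 2 clones the other cell was Slc17a6-only. The PAG cell of clone H had Slc17a6 at 278, Gad1 at 0.507 and Gad2 at 13.04. The dSC cell of clone Q had Slc17a6 at 137, Gad1 at 53.6 and Gad2 at 39.6. A dual cell thus occurred beside a partner of either class.

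Dual cells were found in both collicular tissues. They made up 3 of 22 sSC cells (13.6%) and 2 of 12 dSC cells (16.7%), a difference of -3.03 percentage points that did not pass (2-sided Fisher's exact test, p = 1). By driver they made up 1 of 22 Fz10-CreER cells (4.55%) and 4 of 14 Sox2-CreER cells (28.6%). That difference of -24.0 percentage points did not pass the threshold of 0.05 (2-sided Fisher's exact test, p = 0.0637). That test counts cells of a clone as independent, although the driver is fixed per clone. With clones as the unit, a comparison added after seeing the data, 1 of 11 Fz10-CreER clones (9.09%) and 4 of 7 Sox2-CreER clones (57.1%) held a dual cell, a difference of -48.1 percentage points that passed (2-sided Fisher's exact test, p = 0.0474, not adjusted). At a class threshold of 50 the clones were 6 of 11 and 7 of 7 (exact p = 0.101). Which animals the clones of each driver came from is not in the labels, so driver and animal cannot be told apart.

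The dual cells had most transcripts of neurons, with clone H the weakest. Of 20 general neuronal genes, 20 were at 1 or more in clones F, I, M and Q and 18 in clone H. Clone H had Tubb3 at 0 and Uchl1 at 7.88, the lowest Uchl1 of all 36 cells. Compared with the mean of both classes, 16 of the 20 genes were lower in dual cells and 4 higher, and none passed after adjustment in limma. Snap25, a vesicle fusion protein of synapses, was at 1862 in clone F, 2139 in clone H, 1873 in clone I, 1930 in clone M and 2743 in clone Q, within the ranges of 935 to 3085 in Slc17a6-only and 299.8 to 4008 in Gad-only cells. Rbfox3, a splicing factor of mature neurons, was above 9 in each, from 9.28 in clone H to 118 in clone Q, beside a median of 65.7 over all 36 cells. Genes detected, meaning those valued 1 or more, stand in for library quality because the values keep no read depth. Their number was 12161 in clone F, 6180 in clone H, 11955 in clone I, 13450 in clone M and 16769 in clone Q. Clone Q had the most genes of all 36 cells, and clone H had fewer than 34 of them. As a class the dual cells had 12103 ± 3831 such genes (SD, n = 5), against 11408 ± 2189 (SD, n = 9 clones) in Slc17a6-only and 11408 ± 2341 (SD, n = 14 clones) in Gad-only cells (2-sided exact permutation tests, p = 0.677 and 0.638). Neither difference was larger than the spread between clones.

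Of the GABA pathway outside the rule, the dual cells had little of the vesicular transporter. Slc32a1 was at 14.2 in clone F, 0 in clone H, 0 in clone I, 0.866 in clone M and 9.96 in clone Q. The Gad-only median was 28.5 (0.731 to 72.2), and it was at 1 or more in 18 of 19, against 2 of 5 dual and 3 of 11 Slc17a6-only cells. The highest dual cell lay below the Gad-only median, though the ranges overlapped.

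On the log2(value + 1) scale, Slc32a1 averaged 1.66 ± 1.90 (SD, n = 5) in dual cells, 4.58 ± 1.28 (SD, n = 14 clones) in Gad-only cells and 0.96 ± 1.49 (SD, n = 9 clones) in Slc17a6-only cells. It was lower in dual than in Gad-only cells by a difference of -2.93 (2-sided exact permutation test, p = 0.00224, Benjamini-Hochberg adjusted p = 0.0313 over 14 single-value tests). That test treats all means as independent, although clones F, I and M each gave a mean to both classes. It was not repeated with clone as a block. In the limma fit, adjusted over all genes, the same difference did not pass (SE 0.87, adjusted p = 0.940). The difference of 0.70 from Slc17a6-only cells did not pass (exact p = 0.444, adjusted p = 0.859). Leaving out clone H, clone I or clone M in turn kept the direction against Gad-only cells but raised the adjusted p to 0.119, 0.119 and 0.105, and a class threshold of 50 gave -1.68 (permutation test with 100000 draws, adjusted p = 0.329). Slc32a1 also separated the single classes (-3.62 in Slc17a6-only against Gad-only cells, limma), so its level in dual cells is not independent of a cut on Gad genes.

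Slc17a7, the vesicular glutamate transporter of cortex, ran from 0 in clone H to 37.7 in clone Q, beside a median of 14.9 (0 to 75.4) over all 36 cells. Slc17a8, the remaining vesicular glutamate transporter, was below 1 in all 5.

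Slc6a5, the transporter that glycine neurons use, was at 53.8 in clone F, the highest value among the 36 cells. It was at 19.4 in clone Q and at 1.37 or less in the other dual cells. Of 16 listed genes of other transmitter systems, 3 to 10 were at 1 or more in a dual cell, with a median of 6. The medians were 4 in Slc17a6-only and 5 in Gad-only cells. Slc18a3, the acetylcholine vesicle transporter, and Slc6a4 and Slc6a2, the serotonin and noradrenaline transporters, were listed at 0 in all 5. Th, the dopamine-synthesis enzyme, reached 18.8 in clone M and was 0 in the others.

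Of 10 genes of GABA synthesis, packaging and uptake, 9 were tested in limma, Slc32a1 among them, and none passed there in any contrast. The largest was Gabbr2, a subunit of the metabotropic GABA receptor, at 31.7 to 80.1 in dual cells against medians of 30.2 in Slc17a6-only and 40.7 in Gad-only cells, a difference of 1.64 (SE 0.86) from the mean of both classes (limma adjusted p = 0.999). Of 11 genes of glutamate handling, 10 were tested and none passed, with Slc1a3, a glutamate reuptake transporter of glia, at 10.6 to 229 in dual cells (difference from the mean of both classes 1.47, SE 1.05).

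Among transcription factors of GABAergic lineages, clone Q had the highest values of the 5 dual cells for Gata3, Sox14, Lhx1 and Otx2. Gata3, a zinc-finger factor that marks midbrain GABA lineages, was at 0 in clones F, H and I, 1.83 in clone M and 22.7 in clone Q. Its Gad-only median was 55.4 (0 to 258, at 1 or more in 17 of 19 cells), and it was at 1 or more in 4 of 11 Slc17a6-only cells. Sox14, a factor of midbrain GABA neurons, was at 48.2 in clone Q and 0 in the other 4, against a Gad-only median of 62.7 and 1 of 11 Slc17a6-only cells at 1 or more. So clone Q was the only dual cell with Sox14, at a value below the Gad-only median. Sox14 was at 1 or more in 18 of the 36 cells, so some Gad-only cells lacked it too.

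Lhx1, a LIM homeobox factor of the same lineages, was at 10.3 in clone Q, 1.19 in clone M and 0 in the other 3, against a Gad-only median of 10.98. Otx2, a midbrain homeobox factor, was at 227 in clone Q, 26.7 in clone F and 0 in the other 3, against a Gad-only median of 106. Gata2 was listed at 0 in all 5 dual and all 11 Slc17a6-only cells, and at 1 or more in 8 of 19 Gad-only cells. Pax7 was at 2.40 in clone F and 0 in the others. Lmo3, a LIM-only factor placed on the same list, ran the other way, at 149.9 in clone F, 125 in clone H, 297 in clone I, 65.6 in clone M and 104.5 in clone Q, against medians of 74.4 in Slc17a6-only and 46.9 in Gad-only cells. With Lmo3, a list named for GABA held a gene that was not low in dual cells.

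Of 22 listed GABAergic factors, 14 passed the filter on low values. The median difference of those 14 was -2.17 from Gad-only cells and 0.29 from Slc17a6-only cells, beside medians of 0.07 and 0.00 over all 14660 genes tested. At an unadjusted p under 0.05, 7 of the 14 were lower than in Gad-only cells, where 1.72% of all genes were, and none was either way against Slc17a6-only cells, where 4.09% of all genes were. None passed after adjustment. Gata3 came closest, at -4.44 (SE 0.91) from Gad-only cells with a limma adjusted p of 0.154, followed by Sox14 at -4.09 (SE 1.14) and Lhx1 at -3.08 (SE 0.87), both with a limma adjusted p of 0.940. Over the alternatives the adjusted p of Gata3 ran from 0.0142 to 1.00 in limma. It passed with quantile normalisation (0.0142), with genes detected as a covariate (0.0413), without clone Q (0.0166) and without the Gad-only cell clone B sSC (0.0379), and it was 0.917 without clone F, 0.468 without clone I and 1.00 with clone as a block. The filter favours factors that are high in the large Gad-only class, so these counts describe the list and support no claim about it.

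Excitatory lineage factors were present in most dual cells. Tcf7l2, a Wnt pathway factor of excitatory tectal and thalamic cells, was at 38.5 in clone F, 6.58 in clone H, 22.04 in clone I, 63.3 in clone M and 16.8 in clone Q, against medians of 43.1 in Slc17a6-only and 6.14 in Gad-only cells. Lhx9, a LIM homeobox factor, was at 145 in clone F, 0 in clone H, 25.2 in clone I, 24.9 in clone M and 26.3 in clone Q, against medians of 21.99 and 0. Clone H thus lacked Lhx9, while the other 4 were at or above the Slc17a6-only median.

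Pou4f1, a POU factor of tectal projection neurons, was at 24.03 in clone F, 31.2 in clone I and 27.98 in clone M, and below 1 in clones H and Q. Pou4f2, its relative, was at 28.2 in clone F, 15.9 in clone M and 0 in the other 3. Pou4f3 was listed at 38.0 in clone I and at 0 in the other 4 and in all 30 cells of the single classes. Of 20 listed factors, 17 were tested. Their median difference was 1.27 from Gad-only and -0.33 from Slc17a6-only cells. At an unadjusted p under 0.05, 5 of 17 were higher than in Gad-only cells, where 3.03% of all genes were, and none passed after adjustment. Slc17a6 separates dual from Gad-only cells by the rule, so factors that follow it are bound to be higher. These counts describe the list and support no claim about it.

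**Figure D2:**
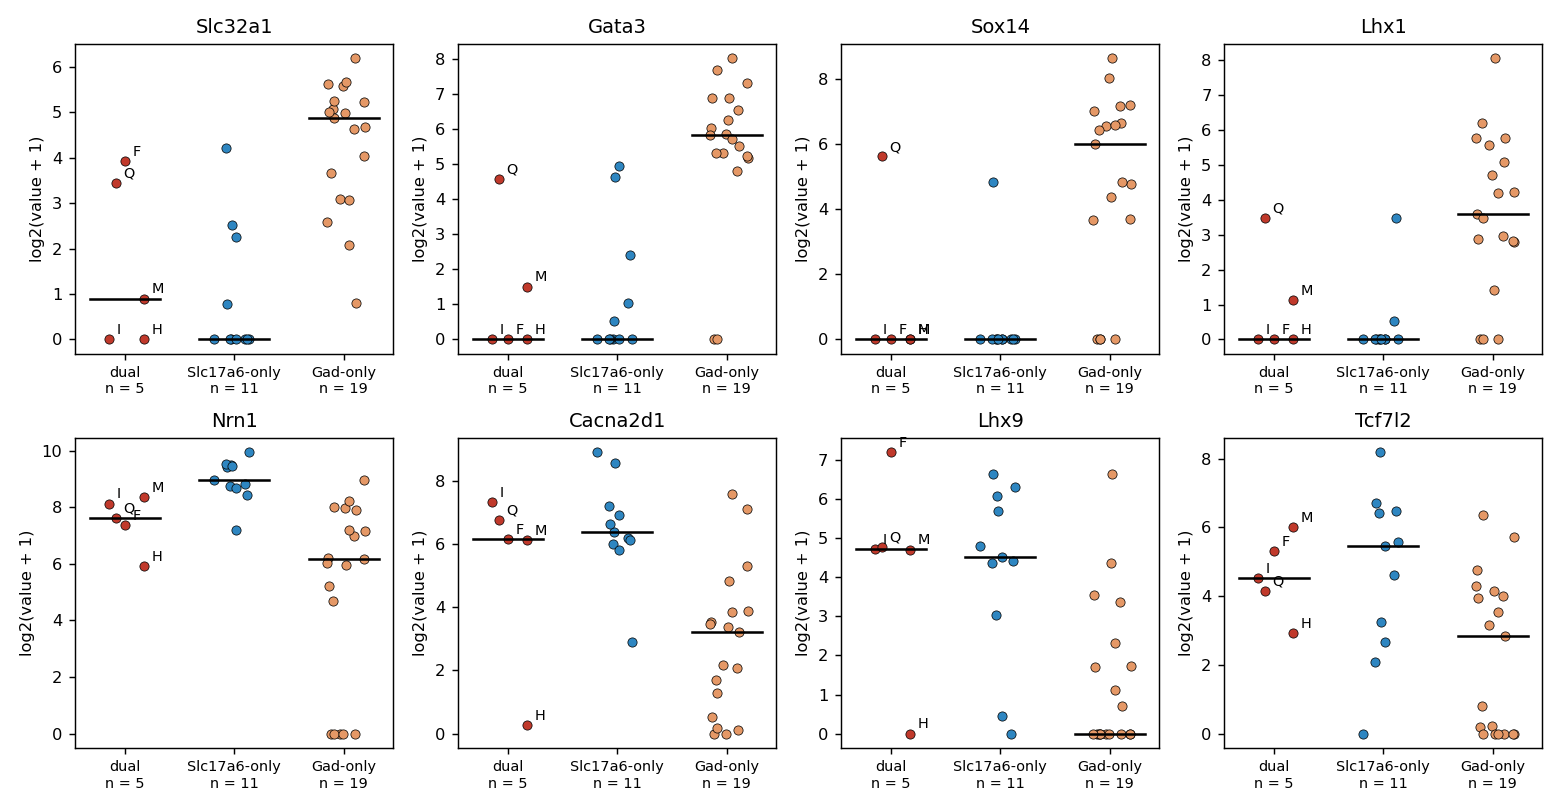
Log2(value + 1) of 8 genes in each dual, Slc17a6-only and Gad-only cell (1 point per cell, bar at the median), with dual cells labelled by clone. The upper row shows Slc32a1, Gata3, Sox14 and Lhx1, where clone Q is the only dual cell with Sox14 and most other dual cells are at or near 0. The lower row shows Nrn1, Cacna2d1, Lhx9 and Tcf7l2, where dual cells other than clone H overlap the Slc17a6-only cells.

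A larger set of genes, which includes several of those above, was then read cell by cell. From the limma fit, the 25 genes of smallest p on each side of the Slc17a6-only against Gad-only contrast were taken, leaving out the 3 rule genes. In that contrast 5 of 14660 genes (0.0341%) passed, all lower in Slc17a6-only cells: Gata3, Asic4, Slc32a1, Lhx1 and Sox14. The dual mean lay between the class means for 23 of 25 genes higher in Slc17a6-only and for 22 of 25 higher in Gad-only cells. It lay nearer the Slc17a6-only mean for 15 of the first 25 and 21 of the second 25. The genes were picked on the single-class cells, and cells classed by Gad and Slc17a6 are bound to differ in genes that follow them, so no test is given.

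The dual cells differed among themselves in these genes. Clone Q was nearer the Slc17a6-only mean for 22 of 25 Slc17a6-side genes and at the same time nearer the Gad-only mean for 24 of 25 Gad-side genes. No other cell had more than 13 of the first together with more than 10 of the second: Slc17a6-only cells reached 0 to 8 of the Gad-side genes, and Gad-only cells 0 to 13 of the Slc17a6-side genes. The single-class cells chose these genes and set the means, so their own separation was built in and is no yardstick for clone Q. By its own counts clone Q carried both sets of transcripts, in the library with the most genes detected. The part of the number of genes detected in this was not tested.

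Clones F and I lay within the ranges of the Slc17a6-only cells (13 to 24 and 0 to 8), and clone M was 2 Gad-side genes above them. Clone F was nearer that class for 16 of 25 Slc17a6-side genes and nearer Gad-only cells for 6 of 25 Gad-side genes. Clone I had 13 and 6, and clone M 17 and 10. Clone H, with 3 and 3, carried neither set and lay beside the Gad-only cell clone B sSC (0 and 3), the cell with the fewest genes detected (2661). Clone C dSC, with none of the rule genes at 100, had 12 and 16.

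Single genes illustrate these positions. Nrn1, a secreted protein that promotes neurite growth, was at 163 in clone F, 59.4 in clone H, 279 in clone I, 325 in clone M and 197 in clone Q, against medians of 493 in Slc17a6-only and 71.1 in Gad-only cells. Cacna2d1, an auxiliary calcium channel subunit, was at 69.9, 0.207, 159, 68.6 and 108 in the same order, against medians of 81.8 and 8.33. Asic4, an acid-sensing channel family member, was at 32.9 in clone Q, 4.22 in clone F and 0 in the rest, against 0 and 24.9. Of the dual cells, only clone Q thus had Asic4 above the Gad-only median. It also had Cacna2d1 above the Slc17a6-only median, while its Nrn1 lay between the class medians.

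**Figure D3:**
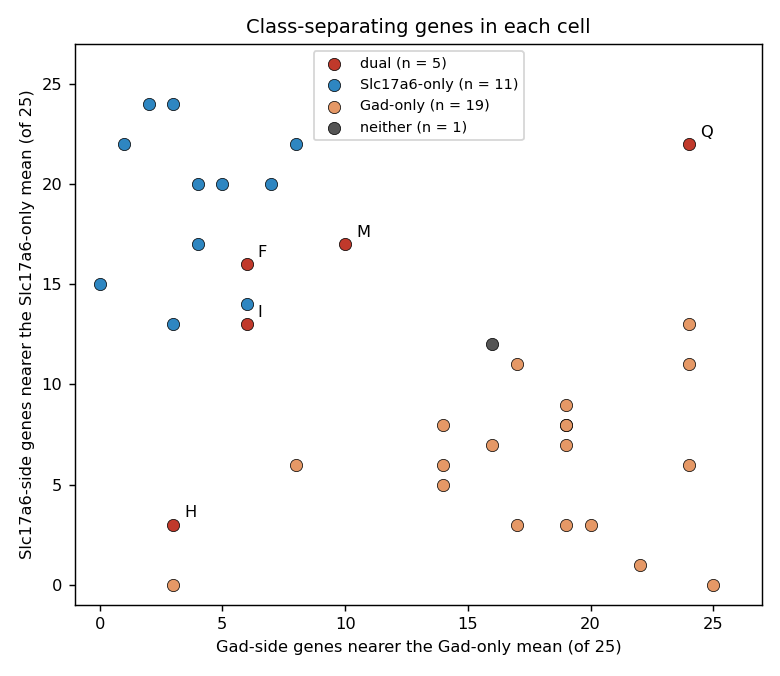
Number of 25 Slc17a6-side genes nearer the Slc17a6-only mean (vertical axis) against number of 25 Gad-side genes nearer the Gad-only mean (horizontal axis), 1 point per cell. Clone Q stands alone at upper right (24 and 22), clones F, I and M lie with or just beside the Slc17a6-only cells, and clone H lies at lower left (3 and 3). The single-class cells chose the genes, so their own separation was built in.

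Across all genes, little set the dual cells apart as a class. No gene passed against Slc17a6-only cells (0% of 14660 genes, limma adjusted p under 0.05, with 600 genes at an unadjusted p under 0.05). Against Gad-only cells 1 gene passed (0.00682%, with 696 at an unadjusted p under 0.05), and against the mean of both classes 1 gene passed (0.00682%, with 658). It was Trib1 in both.

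Trib1 encodes a pseudokinase that brings transcription factors to a ubiquitin ligase for degradation. It was at 25.6 in clone F, 149.8 in clone H, 9.63 in clone I, 24.03 in clone M and 5.10 in clone Q. It was at 0 in 8 of 11 Slc17a6-only cells, and the other 3 were clone J dSC at 19.04, clone J sSC at 13.8 and clone L sSC at 4.47. In Gad-only cells it was at 0 in 15 of 19, at 1.30 or less in 3 and at 148 in clone T sSC cell 1. All 5 dual cells thus had the transcript and most others did not, but the ranges overlapped.

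The Trib1 difference was 4.13 (SE 0.71, limma adjusted p = 0.0167) from Gad-only cells, 3.93 (SE 0.75, adjusted p = 0.119) from Slc17a6-only cells and 4.03 (SE 0.67, adjusted p = 0.0104) from their mean. Only 5 of the 30 single-class cells had a value of 1 or more, so the gene passed the 25% filter through the dual cells, and a gene so chosen had to differ. The call was lost with clone as a block (adjusted p = 1.00 in both contrasts), with cells as replicates, with tissue and driver as covariates, with quantile normalisation (adjusted p = 0.294 against Gad-only cells) and with a pseudocount of 10. Against Gad-only cells it was also lost with no filter (limma adjusted p = 0.0776). At a class threshold of 50 the difference from Gad-only cells was 1.35 (limma adjusted p = 0.999) and that from the mean of both classes 1.12 (adjusted p = 0.995). It was also lost without clone F (adjusted p = 0.0830 against Gad-only cells), without clone H (0.0596) or without clone M (0.0784). Without the clones F and H together Trib1 fell below the filter.

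Other genes of smallest p are named without having passed. Higher than the mean of both classes were Gm14341 (2.88, adjusted p = 0.294), which overlaps Nkain4 on the opposite strand, and Olfml3 (3.53, adjusted p = 0.616), a secreted protein that brain microglia express, together with Gm5445 (2.47) and 6330418K02Rik (5.14), which overlaps Gal3st4 and Gm43720 on the opposite strand. Olfml3 was at 122 in clone F, 32.97 in clone H, 36.9 in clone I, 11.4 in clone M and 35.7 in clone Q, against medians of 0 and 3.72. 6330418K02Rik was at 3747 in clone H, 1343 in clone I and 402 in clone Q, but at 0 in clones F and M. Use of strand in the counting is not given in the sources used here, so reads of antisense partners may be mixed.

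Lower than the mean of both classes were Ankrd24 (-3.06), Gm4459 (-2.85), Usp39 (-3.71), a splicing factor, Arl1 (-3.10), a small GTPase of the Golgi, and Mterf4 (-3.69), a mitochondrial regulator, each with a limma adjusted p of 0.616. Mterf4 was listed at 0 in all 5 dual cells and at 1 or more in 9 of 11 Slc17a6-only and 13 of 19 Gad-only cells. Usp39 was at 23.8 in clone Q and 0 in the other 4. Zeros of this kind in single cells can be failed captures.

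Against each class alone, the genes of smallest p were again not past the threshold. Higher than in Slc17a6-only cells were Ttpal (4.22), Esrra (4.30), a nuclear receptor of energy metabolism, and Pde6h (5.17), a phosphodiesterase subunit whose gene overlaps Arhgdib on the other strand, each with a limma adjusted p of 0.588. 0610037L13Rik was lower (-3.02). Higher than in Gad-only cells were Dbx2 (3.55), a homeobox factor, and A830011K09Rik (5.55), which overlaps Lmo3 on the opposite strand, and Gm11574 was lower (-3.76). Dbx2 was at 18.97 in clone F, 1.48 in clone H, 23.5 in clone I, 44.5 in clone M and 14.3 in clone Q, and at 1 or more in 3 of 19 Gad-only cells.

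Markers of microglia, the immune cells of the brain, varied strongly between the 5 dual cells. The sum of 15 microglia markers was 15516 in clone F, 15932 in clone H, 4010 in clone I, 4711 in clone M and 802 in clone Q. The median was 1942 in Slc17a6-only cells (85.4 to 12632) and 2346 in Gad-only cells (186 to 8501). Clones H and F had the highest sums of all 36 cells, and clone Q was below both medians.

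On the log2 scale the sum was higher in dual cells by 1.83 against Slc17a6-only cells (2-sided exact permutation test, p = 0.0799, adjusted p = 0.373) and by 1.59 against Gad-only cells (exact p = 0.0413, adjusted p = 0.289). Neither passed after adjustment over the 14 tests. Leaving out clone Q, which is low, raised the second to 2.26 (exact permutation test, adjusted p = 0.0252). The second difference was 1.19 without clone F and 1.18 without clone H (exact permutation tests, adjusted p = 0.918 and 0.413). Without clone I or clone M it did not pass either (adjusted p = 0.389 and 0.423, same test).

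All 15 markers were measured in enough cells to be tested, and all 15 had a positive difference from the mean of both classes, with a median of 2.35 beside 0.04 over all genes. Itgam was at 1 or more in 9 of 36 cells, among them 3 of 5 dual and 3 of 11 Slc17a6-only cells. It passed the filter on low values only with the dual cells counted, so its positive difference supports no claim. At an unadjusted p under 0.05, 7 of 15 were higher, where 2.87% of all genes were, and none passed after adjustment. The highest was Cd68, a lysosomal protein of phagocytes, at 1945 in clone F, 1585 in clone H, 43.2 in clone I, 1334 in clone M and 194 in clone Q, against medians of 0.820 in Slc17a6-only and 134 in Gad-only cells (difference from their mean 4.84, SE 1.48, limma adjusted p = 0.713). P2ry12, a purine receptor of resting microglia, was at 1468, 481, 390.3, 358.5 and 26.2 in the same order, against medians of 98.1 and 86.6. Of the 15 markers, 13 to 15 were at 1 or more in a dual cell (median 14), against medians of 11 in Slc17a6-only and 11 in Gad-only cells. Zeros were seen for Itgam and Ptprc in clones H and I, and for Tmem119 in clones M and Q. Over all 36 cells Ptprc was at 1 or more in 11 and Tmem119 in 20. No other sum passed (adjusted p of 0.859 or more for oligodendrocytes, astrocytes, vascular cells and red blood cells, exact permutation tests), although clone H had the highest red blood cell sum of the 5, at 6691.

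Clone H had the highest Trib1 and the highest microglia sum of all cells, clone F was at rank 3 and rank 2, and clone J dSC, a Slc17a6-only cell, was at rank 5 and rank 3. Clone Q had the lowest Trib1 and the lowest microglia sum of the dual cells. On the other hand, clone T sSC cell 1, with Trib1 at 148, had a microglia sum of 3104 (rank 14), and clone J sSC, with Trib1 at 13.8, had 626 (rank 34). The part of microglial RNA in the Trib1 difference was not tested.

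**Figure D4:**
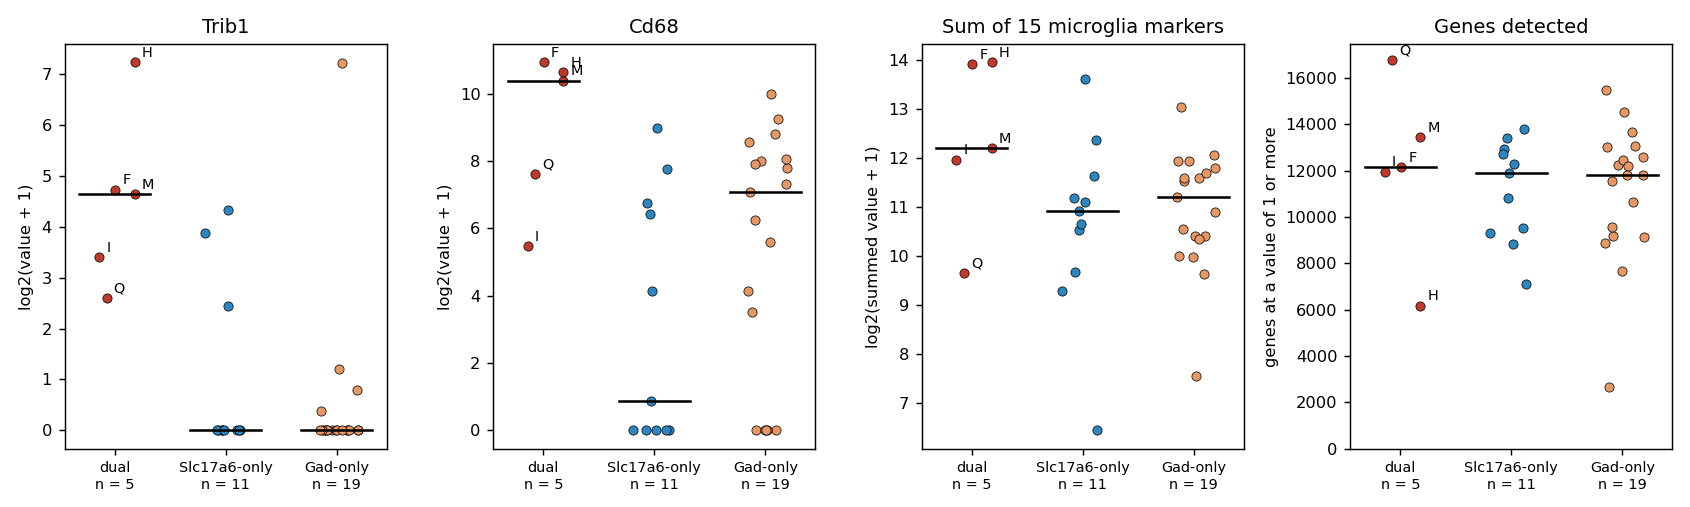
Trib1, Cd68 and the sum of 15 microglia markers as log2(value + 1), and the number of genes detected, in each dual, Slc17a6-only and Gad-only cell (1 point per cell, bar at the median, dual cells labelled by clone). Clones F and H have the highest microglia sums of all 36 cells, and genes detected run from 6180 in clone H to 16769 in clone Q.

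Peptides and calcium-binding proteins, which subdivide collicular neurons, differed from dual cell to dual cell. Sst, the somatostatin peptide of many GABA neurons, was at 52.2 in clone F, 3.57 in clone H, 178 in clone I, 598 in clone M and 138 in clone Q, against medians of 288 in Slc17a6-only and 945 in Gad-only cells. Cartpt, a peptide of retinorecipient and other neurons, was at 34.3 in clone Q and 0 in the other 4, and at 1 or more in 14 of 19 Gad-only cells. Vip was at 608 in clone Q, above the highest value of 73.0 among Slc17a6-only and 41.1 among Gad-only cells. Cck was at 1899 in clone H and 0 in clone F. The 5 cells shared no peptide pattern, and no tested peptide of 13 passed in any contrast (limma). At an unadjusted p under 0.05, 2 of 13 were lower than in Gad-only cells, where 1.72% of all genes were.

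Calb1, which encodes calbindin, was present in all 5, at 213 in clone F, 502 in clone H, 98.5 in clone I, 103 in clone M and 401 in clone Q, against medians of 353 in Slc17a6-only and 47.4 in Gad-only cells. Scgn, which encodes secretagogin, was below 1 in all 5 and at 1 or more in 8 of 19 Gad-only and 1 of 11 Slc17a6-only cells. Neither gene passed after adjustment.

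All 20 excitatory and all 20 inhibitory postsynaptic genes were tested, and none passed. Gria2, an AMPA receptor subunit, was at 506 in clone F, 338 in clone H, 400.1 in clone I, 229 in clone M and 305 in clone Q, against medians of 214 and 183, a difference of 1.14 (SE 0.56) from their mean (limma adjusted p = 0.999). Glra3, a glycine receptor subunit, was at 13.6, 0, 79.9, 31.1 and 67.5 in the same order, against medians of 0.359 and 4.14. Immediate early genes, which rise after activity or cell handling, had a median difference of 1.13 from Gad-only and -0.13 from Slc17a6-only cells over 21 tested members, and none passed. Npas4, an activity-induced factor, was at 9.55, 0, 24.1, 19.9 and 15.9 in the same order, and at 1 or more in 4 of 11 and 3 of 19 cells of the other classes. It passed the filter on low values only with the dual cells counted, so its higher values in dual cells support no claim.

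General neuronal genes had a small median difference of -0.42 from Slc17a6-only cells and -0.16 from Gad-only cells over 20 members. The lowest were Tubb3, a neuronal tubulin, and Uchl1, a ubiquitin hydrolase abundant in neurons, and both followed clone H. Tubb3 was at 0 in clone H and between 222 and 424 in the other 4, and Uchl1 was at 7.88 in clone H and between 654 and 1515 in the others. Without clone H the Tubb3 difference from the mean of both classes changed from -1.66 to 0.027.

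The remaining list members of smallest p are given by their difference from the mean of both classes, each with a limma adjusted p of 0.999. Higher values were seen for Nhlh2 (1.51) and Ebf3 (1.58) among excitatory factors, Ddc (1.41) among other transmitters, Glul (0.93) in glutamate handling, S100a10 (1.95) among calcium-binding proteins, Nlgn1 (0.65) among synaptic organisers and Dusp1 (1.86) among immediate early genes. Lower values were seen for Ache (-1.72), the enzyme that breaks down acetylcholine, the receptor subunits Grin1 (-1.34) and Glra1 (-1.34), and the synaptic organiser Nrxn3 (-1.02). Among markers of other cells, Olig2 (1.48), Olig1 (1.54), Gfap (1.49), Vtn (0.63) and Hba-a2 (1.26) were higher, and Gja1 (-1.12), Pdgfrb (-0.46) and Hbb-bt (-2.40) were lower. Nhlh2 and Olig2 passed the filter on low values only with the dual cells counted, so their higher values support no claim. The mitochondrial genes mt-Co3 (0.86) and mt-Co2 (-1.38) went in opposite directions. No tested member of the 18 lists passed in limma in any of the 3 contrasts.

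**Figure D5:**
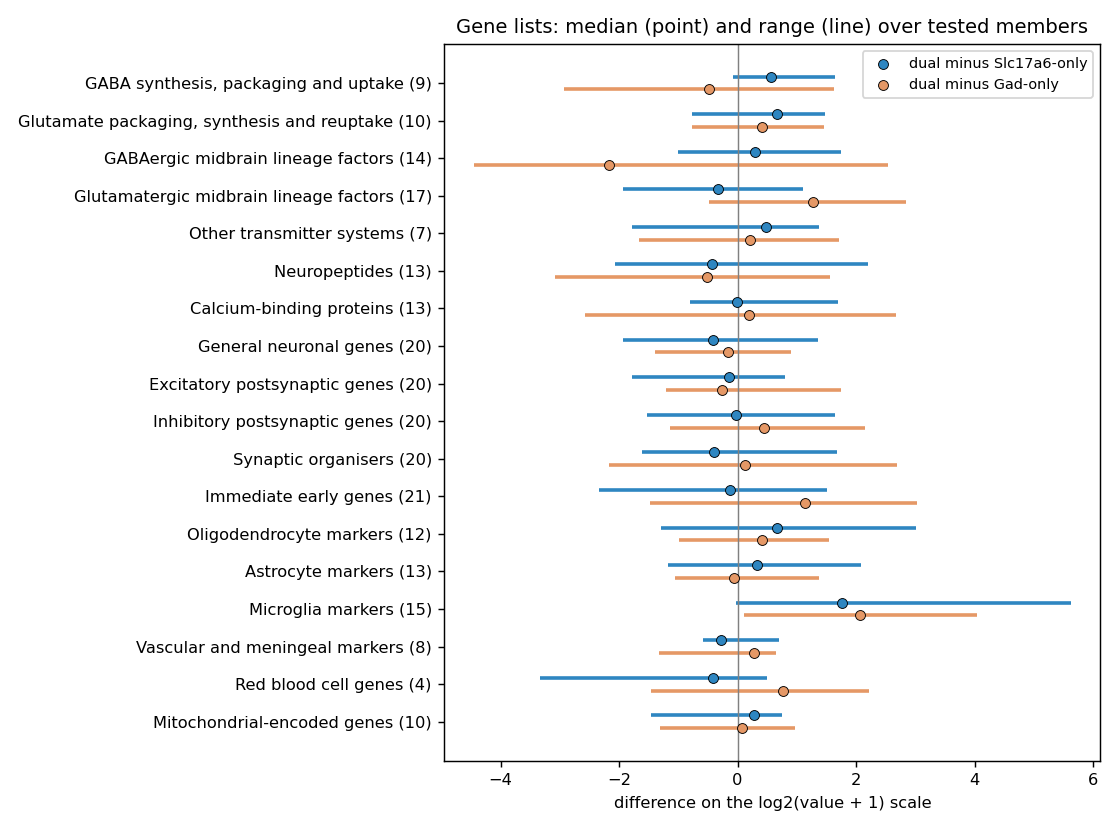
Median (point) and range (line) of the limma difference over the tested members of 18 gene lists, for dual minus Slc17a6-only (blue) and dual minus Gad-only cells (orange), on the log2(value + 1) scale, with the number of members tested in brackets. Microglia markers have medians of 1.77 and 2.07, and GABAergic lineage factors have 0.29 and -2.17.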

How the data were processed

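The deposited values are a normalised signal for 55359 genes in each cell, and the authors labelled it as exon and intron TPM. Since every cell sums to 2000000, it was not treated as plain TPM. It keeps no read depth, so no counting interval is given. Per the submitters' processing notes, the tools and build include STAR 2.7.9a, R 4.0.3 and GRCm39. The labels' protocols name the SMART-Seq Single Cell PLUS kit. In the sources used here, neither the formula behind the values nor any use of strand is given. Symbols were matched by gene identifier (52083 genes).

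Cells were classed by the threshold of 100. The members and gene lists were chosen with earlier results of these data known. On the log2(value + 1) scale, which understates differences of low genes, cells of 1 clone and class were averaged (5, 9 and 14 means). A gene was tested if 25% or more of the classed cells reached a value of 1, and the 3 rule genes were left out. All 3 classes entered 1 fit in limma 3.58.1 under R 4.3.3, using eBayes (trend, robust), and p was adjusted by Benjamini-Hochberg across 14660 genes, with a threshold of 0.05. Single values were compared by 2-sided exact permutation tests in Python 3.11.15 with scipy 1.17.1, adjusted over 14 tests. These tests ignored that clones F, I and M also gave Gad-only means, and clones H and Q Slc17a6-only means. The fit was tested on simulated data. Cells of a clone share an animal by design. A fit with clone as a block is reported beside the calls it changes.

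Named genes were, per contrast, those past the threshold (up to 10 per direction) or, where fewer than 10 passed, the 5 per direction of smallest p, with 8 transmitter genes and the 2 members of smallest p per list. Some genes that this rule picks are not reported here. Other genes named were chosen after their values were seen. The plan assumed plain TPM, and its log-scale tests were kept for this signal. Alternatives in pseudocount, filter, normalisation, covariates, replicate unit, class threshold and left-out cells are in the closing section.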

Additional observations from a re-analysis of the deposited data

Results flagged for a closer look

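In groups of 4 to 10 samples, a highest or lowest value was looked for that lay far from the others relative to the whole range, a check that chance meets in about 1 of 20 groups. Among the 5 dual cells it was met by Gad1 at 703 and Gad2 at 461 in clone Q, by Trib1 at 149.8 in clone H, and by the summed red blood cell genes at 6691 in clone H. Gad1 and Gad2 chose the cells, so their values are a description.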

How the results depend on the processing

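Of 1400 alternative values for 74 named results, 1338 kept their direction and side of the threshold, and 19 results had a reversal. Among the 74 only Trib1 had passed, against Gad-only cells and against the mean of both classes. It lost the call in 21 alternative values. The other results had no call to lose, so the count of 1338 is no measure of robustness. Thresholds of 1, 10, 50, 200 and 300 gave 30, 27, 14, 0 and 0 dual cells, so nothing could be fitted at 200 or 300. With clone as a replicate block, 0 genes passed in each of the 3 contrasts (limma, with 413, 537 and 459 at an unadjusted p under 0.05). The 1 gene that passed against Gad-only cells became 0 with a pseudocount of 10, no filter, cells as replicates, tissue and driver as covariates, both Gad genes required at 100 (which leaves clone Q alone, assumed to vary like the other groups), without clone B sSC and clone H, and without clones F and H. The number stayed at 1 with quantile normalisation, at a threshold of 50 and without clone H, but Trib1 was lost there (limma adjusted p = 0.294, 0.999 and 0.0596) and another gene passed, Gata3 under quantile normalisation (0.0142). The number became 2 with genes detected as a covariate or without clone B sSC. The 1 that passed against the mean of both classes became 0 with a pseudocount of 10, cells as replicates, tissue and driver as covariates, quantile normalisation, a threshold of 50, and without either pair of cells, and 2 with no filter. The settings that drop clone B sSC, or a pair of cells, were added after seeing the data. Against Slc17a6-only cells, requiring both Gad genes gave 1. Leaving out each dual cell gave 0 to 1, 0 to 2 and 0 to 1 genes for the contrasts with Slc17a6-only cells, Gad-only cells and their mean (against Gad-only cells, 0 without clone F or M and 2 without clone Q).

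Leaving out 1 dual cell at a time, the difference in genes detected ran from -472 to 2176 for each class. Slc32a1 against Gad-only cells ran from -3.49 to -2.51 (-1.68 at a threshold of 50), and microglia markers from 1.18 to 2.26. Oligodendrocyte markers against Gad-only cells ran from -0.10 to 0.51, astrocyte markers against Slc17a6-only cells from -0.11 to 0.29, vascular markers against Gad-only cells from -1.19 to 0.18 and red blood cell genes against Slc17a6-only cells from -1.04 to 0.46. Tubb3 ran from -2.16 to 0.027, and Slc17a7 against Slc17a6-only cells from -1.19 to 0.12. At a threshold of 50, vascular markers were 0.58 (Slc17a6-only) and 0.50 (Gad-only), and red blood cell genes 0.0051 (Slc17a6-only).

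Reversals at a threshold of 50 were, against the mean of both classes, Slc32a1 0.14, Cartpt 0.60, Nrxn3 0.54, Vtn -0.50 and Pdgfrb 0.41, and Slc17a7 was 1.48 (Slc17a6-only) and 0.24 (Gad-only). With both Gad genes required, Arl1 was 0.23 (Slc17a6-only) and 0.30 (mean), Sox14 0.41 (Gad-only), and against the mean Slc32a1 was 0.68, Gata3 1.15, Ebf3 -1.88, Ache 0.94, Cartpt 1.59, Tubb3 0.24, Nrxn3 1.19, Gja1 2.91, P2ry12 -0.26, Pdgfrb 0.49 and Hbb-bt 0.71, while Slc17a7 was 1.90 (Slc17a6-only) and 1.71 (Gad-only). Without clones F and H, Ache was 0.99, Uchl1 0.18, Tubb3 0.24, Grin1 0.37, Nrxn3 0.019 and Gja1 0.31 (mean), and Slc17a7 0.41 (Slc17a6-only) and 0.21 (Gad-only). Without clone B sSC and clone H, Slc17a7 was 0.12 (Slc17a6-only) and 0.012 (Gad-only). With clones as the unit, the driver difference was -48.1 percentage points (2-sided Fisher's exact test, p = 0.0474). The cause was not tested.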
